A study of Mus musculus with 8 samples.

Results

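The receptor gene Cxcr3 and the genes of its 3 chemokine ligands, Cxcl9, Cxcl10 and Cxcl11, were followed in mouse bone marrow-derived macrophages given lipopolysaccharide (LPS), the outer membrane component of Gram-negative bacteria. These genes were chosen with earlier results of these data known. The members were all probe sets that the platform annotation assigns to the genes, and no measured value was used to select among those probe sets. They comprised 5 of 22690 probe sets on the array and 4 of 12394 genes with a probe set of their own. Cxcl11 had 2 probe sets and the other genes 1 each.

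Total RNA of 8 groups was measured on 8 Affymetrix arrays, 1 per group. Bone marrow came from C57BL/6 mice or from Cd14-/- mice on the same background, 6 to 8 weeks old. It was grown for 7 days in medium containing M-CSF, which turns marrow cells into macrophages, and 10% serum. CD14 is the surface protein that hands LPS to the receptor complex of TLR4. Wild-type and CD14-deficient cells were each taken unstimulated, 24 h after plating, and after 6 h and 24 h of LPS. The dose was 1 µg/ml of smooth LPS, whose long sugar chains are intact; the labels of the CD14-deficient samples name the stimulus only as LPS. Wild-type cells were also given LPS with EGTA, a chelator of calcium outside the cell, for 6 h and 24 h. The EGTA dose of 2 mM is given for the 24 h sample only, and no array holds EGTA without LPS. The sources used here do not give the number of mice or cultures behind each array.

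CXCR3 is a G protein-coupled receptor found mainly on activated T cells and natural killer (NK) cells, which follow gradients of its ligands into inflamed tissue. CXCL9, CXCL10 and CXCL11 are CXC chemokines that lack the ELR motif of neutrophil attractants. Macrophages make them in response to interferons, and Cxcl10 is also switched on by LPS through TLR4, by way of the transcription factors IRF3 and NF-kB. Cxcl9 is known for its dependence on interferon-gamma. C57BL/6 mice carry a frameshift in Cxcl11, and RefSeq lists the gene as a transcribed pseudogene, so the Cxcl11 values here are those of a transcript and not of a chemokine.

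The ligand genes are neighbours on chromosome 5 in the order Cxcl9, Art3, Cxcl10, Cxcl11, by the RefSeq gene table, and Cxcr3 lies on chromosome X. Of the 4 genes, 3 matched an entry of the RefSeq promoter table (GRCm38.p6), which gives the 250 bases before and 50 bases after the start of a gene, 300 in all; Cxcl11 did not. The promoters of Cxcl10 (chr5:92348840-92349139, minus strand) and Cxcl9 (chr5:92328030-92328329, minus strand) are shown because the values of these neighbours parted in CD14-deficient cells. Capitals mark matches, on either strand, to the consensus of an interferon-stimulated response element (ISRE), of a kappaB site or of an interferon-gamma activated site (GAS).
Cxcl10: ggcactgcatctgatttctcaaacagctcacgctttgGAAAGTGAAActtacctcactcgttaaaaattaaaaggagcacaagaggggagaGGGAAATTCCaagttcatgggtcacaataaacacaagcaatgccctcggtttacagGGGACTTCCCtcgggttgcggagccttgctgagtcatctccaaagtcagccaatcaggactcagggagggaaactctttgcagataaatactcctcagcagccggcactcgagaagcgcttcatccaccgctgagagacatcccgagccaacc
Cxcl9: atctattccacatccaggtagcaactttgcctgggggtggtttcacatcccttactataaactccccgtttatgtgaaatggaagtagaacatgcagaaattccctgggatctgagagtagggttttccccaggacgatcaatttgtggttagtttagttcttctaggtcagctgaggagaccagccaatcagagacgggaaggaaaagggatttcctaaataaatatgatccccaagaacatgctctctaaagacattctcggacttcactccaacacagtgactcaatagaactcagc
The Cxcl10 window held 1 ISRE match, GAAAGTGAAA, at -213 to -204 from the start, where -1 is the base before it. It also held kappaB matches GGGAAATTCC at -159 to -150 and GGGACTTCCC at -103 to -94, and no GAS match. The matches did not overlap each other. The Cxcl9 window held no match to these patterns, and neither did that of Cxcr3 (chrX:101734098-101734397, minus strand). Of 32851 promoter windows in the table, 3.44% held an ISRE match, 4.01% a kappaB match and 8.30% a GAS match. A match describes these letters and is no measured binding. Each element was searched as a fixed pattern, so variant sites were not counted. A window without a match may therefore still hold such an element.

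Values are intensities that the authors deposited after MAS5 summarisation, here quantile normalized over the 8 arrays. An intensity of 38.4, the 40th percentile over all arrays, served as a floor for dimmer values. Where 1 array of a pair was at this floor, the fold is given as "at least". Counts of genes above or below a member use floored values, so genes with such bounds may be out of their true order. The median intensity was 88.2, and a gene was compared where its brighter array lay above that median. No group had a replicate, so no difference below has a test, and each stands for a pair of arrays, not a pair of conditions. Differences are log2 unless given as a fold, and "2-fold" counts genes at a fold of 2 or more. Among the 12 comparisons made, the closest pair of arrays was LPS with and without EGTA at 6 h, which held 95% of 6740 genes between -0.58 and 0.60; steps under 0.59, or 1.51-fold, are described below as no larger than that spread.

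Array quality and the labels were checked first. RNA integrity numbers ran from 9.3 to 9.7, the labelled cRNA from 31.4 to 76 µg, and the median deposited intensity from 55.9 to 119. Cd14 was at the floor on the 3 CD14-deficient arrays and lay between 3849 and 12515 on the 5 wild-type arrays. All 8 macrophage markers on the list exceeded the median, with sums from 62745 to 74027. Of 7 T cell markers on the array, 6 were at the floor on all 8 arrays (Cd3e, Cd3d, Cd3g, Cd8a, Cd8b1 and Cd2), as were 6 of 8 NK cell markers (Ncr1, Nkg7, Gzma, Gzmb, Eomes and Ifng), 4 of 4 B cell markers and 4 of 5 dendritic cell markers. Of 7 neutrophil markers, 3 were at the floor on all arrays and 2 exceeded the median on some array, with sums from 321 to 806. S100a8 ran from 90.6 to 507 and was at 432, 403 and 507 on the 24 h arrays of wild type, EGTA and CD14 deficiency, and Camp was at 107 on the last of these. Of 5 fibroblast markers, 3 were at the floor on all arrays, with sums from 192 to 356. The part of these transcripts in the members' values was not tested.

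Cxcl10, the ligand that macrophages make early after LPS, was high in both genotypes after stimulation. Its intensity in wild-type cells was 511 unstimulated, 14314 after 6 h and 12396 after 24 h of LPS. With EGTA it was 13826 at 6 h and 11965 at 24 h. In CD14-deficient cells it was at the floor unstimulated, 12922 at 6 h and 7035 at 24 h. All 6 LPS arrays therefore lay far above both unstimulated arrays, and 5 of the 6 lay within steps of 0.10 or less of each other, the CD14-deficient 24 h array standing lower. In wild-type cells LPS gave a 28.0-fold higher level at 6 h and a 24.3-fold higher level at 24 h.

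Cxcl11, counted here by its brighter probe set, had a lower level than Cxcl10 in unstimulated wild-type cells and a larger fold with LPS in those cells. Its intensity in wild-type cells was 78.5 unstimulated, 4533 at 6 h and 7371 at 24 h. With EGTA it was 5713 at 6 h and 6649 at 24 h. In CD14-deficient cells it was at the floor unstimulated, 843 at 6 h and 462 at 24 h. The 4 wild-type LPS arrays were the highest, and the CD14-deficient LPS arrays lay between them and the unstimulated arrays. These arrays differ in time and EGTA and are not replicates, and the share of all genes in this order was not counted. In wild-type cells the level was 57.7-fold higher at 6 h, with 1 of 6936 genes above it, and 93.9-fold higher at 24 h, with 0 of 6965 genes above it. These folds are imprecise because the unstimulated value lies below the median, and the ranks rest on floored values.

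The second Cxcl11 probe set was dimmer and also had its 4 highest values on the wild-type LPS arrays, though in another order among them. It was at the floor on both unstimulated arrays and on the CD14-deficient 24 h array, and at 51.7 on the CD14-deficient 6 h array. The 4 wild-type LPS arrays lay between 266 and 298. The level in wild-type cells was at least 7.01-fold higher at 6 h and at least 6.92-fold higher at 24 h. With no floor its differences were 4.18 and 4.16, below the 5.85 and 6.55 of the brighter probe set. The probe sets disagreed on the course from 6 h to 24 h in wild-type cells, which was 0.70 by the brighter one and -0.02 by the dimmer one.

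Cxcl9, the ligand most tied to interferon-gamma, started close to the floor. Its intensity in wild-type cells was 47.0 unstimulated, 1217 at 6 h and 2039 at 24 h. With EGTA it was 1244 at 6 h and 1788 at 24 h. In CD14-deficient cells it was at the floor unstimulated, 134 at 6 h and 182 at 24 h. Each wild-type LPS array exceeded each CD14-deficient LPS array, and those exceeded both unstimulated arrays. As for Cxcl11, the share of all genes in this order was not counted. In wild-type cells Cxcl9 was 25.9-fold higher at 6 h and 43.4-fold higher at 24 h, folds that are imprecise because the unstimulated value lies near the floor.

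Cxcr3, the receptor, changed little beside its ligands. Its intensity in wild-type cells was 286 unstimulated, 303 at 6 h and 489.7 at 24 h. With EGTA it was 217 at 6 h and 187 at 24 h. In CD14-deficient cells it was 253 unstimulated, 213 at 6 h and 132 at 24 h. All 8 arrays exceeded the median, over a range of 3.72-fold from the CD14-deficient 24 h array to the wild-type 24 h array. Apart from the top array, neighbours in this order differed by less than the spread of the closest pair. The lineage markers of T cells and NK cells named above were at the floor on all arrays, while Klrk1, an NK cell activating receptor gene, was not. Klrk1 was at the floor on both unstimulated arrays, 333 and 511 in wild-type cells at 6 h and 24 h of LPS, 293 and 414 with EGTA, and 47.5 and at the floor in CD14-deficient cells, so its highest array was also that of Cxcr3. The T cell marker Cd4 ran from the floor to 136. The part of such cells in the Cxcr3 values was not tested.

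**Figure D1:**
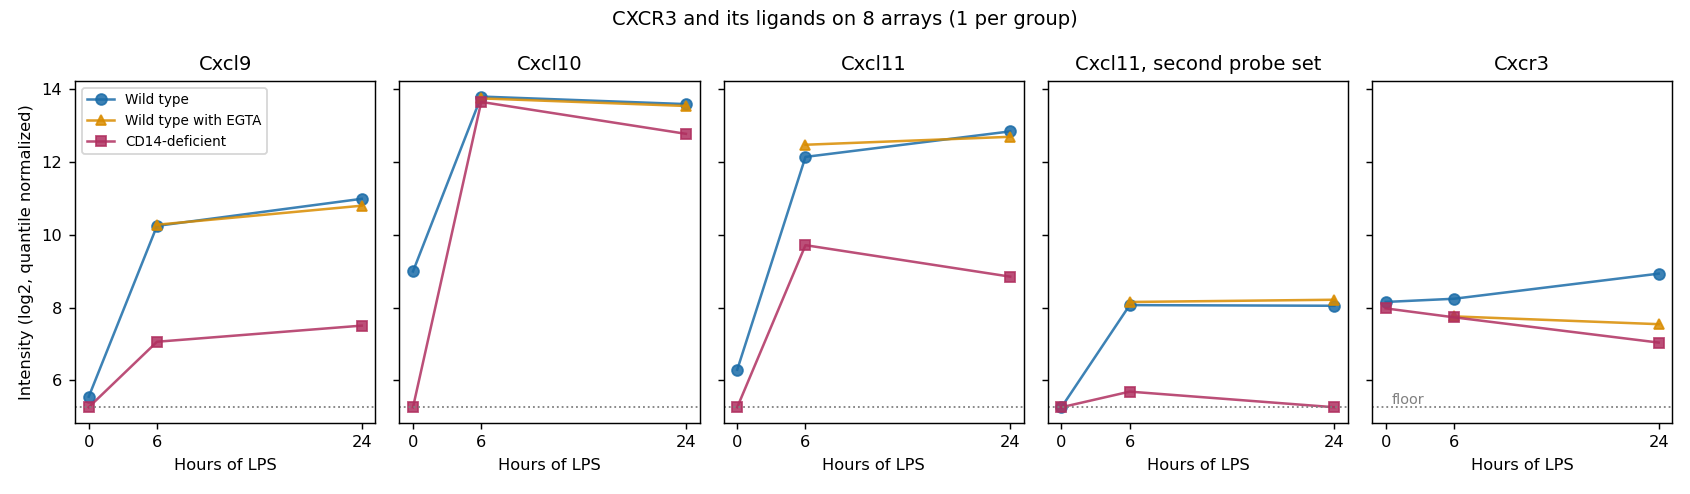
Log2 intensity (quantile normalized) of each member against hours of LPS, 1 panel per probe set and 1 point per array, for wild-type cells, wild-type cells with EGTA and CD14-deficient cells; the dotted line is the floor. The wild-type curves with and without EGTA run together for the ligands, Cxcl10 reaches a like level in CD14-deficient cells at 6 h, and Cxcl9 and Cxcl11 do not.

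LPS in wild-type cells gave 3 of 3 ligand genes at least 2-fold higher at 6 h, where 10.5% of all genes compared were 2-fold higher, and 3 of 3 at 24 h, where 10.6% were. Cxcr3 stood at 0.09 and 0.78. The ligands differed from each other in their course. At 6 h Cxcl9 and Cxcl10 had moved by nearly the same amount, a gap of -0.11 (Cxcl9 minus Cxcl10), and Cxcl11 had moved 1.04 further than Cxcl10. At 24 h the gap to Cxcl10 was 0.84 for Cxcl9 and 1.95 for Cxcl11. The Cxcl11 gaps are those of its brighter probe set. With no floor its second probe set moved by 4.18 at 6 h and 4.16 at 24 h, less than Cxcl10 at both times. The direction of the Cxcl11 gap therefore depended on the probe set.

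From 6 h to 24 h in wild-type cells, Cxcl9 differed by 0.74, Cxcl11 by 0.70 and Cxcr3 by 0.69, while Cxcl10 differed by -0.21. None of the 4 genes reached 2-fold, where 5.5% of genes were 2-fold higher and 5.56% lower, and all 4 values lay within the central 95% of genes, -1.33 to 1.31. The sign of the Cxcl10 value turned, to 0.20, when arrays were scaled to equal medians. With EGTA the same interval gave 0.52 for Cxcl9, -0.21 for Cxcl10, 0.22 for Cxcl11 and -0.21 for Cxcr3, none of them 2-fold, where 6.14% of genes were 2-fold lower.

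CD14-deficient cells also had all 3 ligand genes at least 2-fold higher after LPS than on their own unstimulated array. At 6 h, where 10.3% of genes were 2-fold higher, the folds were at least 337 for Cxcl10, 22.0 for Cxcl11 and 3.49 for Cxcl9. At 24 h, where 8.29% of genes were, they were at least 183 for Cxcl10, 12.1 for Cxcl11 and 4.74 for Cxcl9. These are lower bounds, since all 3 genes were at the floor on the unstimulated array, and bounds do not rank the genes' true folds. Cxcr3 stood at -0.25 at 6 h and -0.94 at 24 h.

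The ligands took different courses between 6 h and 24 h in these cells. Cxcl10 differed by -0.88 and Cxcl11 by -0.87, a gap of 0.01, and Cxcl9 by 0.44. None of the 4 genes reached 2-fold lower, where 6.16% of genes did; under equal medians Cxcl10 did, at -1.06. Cxcr3 differed by -0.69. All 4 values lay within the central 95% of genes, -1.58 to 1.22.

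Unstimulated cells of the genotypes differed in Cxcl10. CD14-deficient cells had at least 13.3-fold less of it than wild type, and 23 of 6782 genes lay lower still. It was 1 of 2 members compared here and Cxcr3, at -0.18, was the other; 3.2% of genes were 2-fold lower. Cxcl11 and Cxcl9 were below the median on both unstimulated arrays and were not compared.

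Genes that respond early to IRF3 and to type I interferon were likewise low on the unstimulated CD14-deficient array. All 7 such genes compared had a level at least 2-fold lower, with a median of -5.29 against 0.02 for all genes. Ccl5, a T cell chemoattractant with a different receptor, was at least 197-fold lower and Isg20 at least 24.6-fold lower. Irf7, the interferon-induced regulator, was 32.6-fold lower. The deficit was not particular to this kind of gene. In the interferon-gamma-type list used below, 9 of 11 showed a deficit of 2-fold or more, with a median of -1.48. So did 2 of 3 other CXC chemokines, with a median of -1.57. The list upstream of the ligands had 4 of 21 (median -0.27), and that of receptor coupling and ligand handling 0 of 7 (median 0.15). Culture, mouse and genotype cannot be told apart for this pair of arrays, and folds over unstimulated values carry the difference with them.

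After 6 h of LPS, Cxcl10 parted from Cxcl9 and Cxcl11 by genotype. Cxcl9 was 9.10-fold lower in CD14-deficient cells (-3.19), and 6 of 6761 genes lay lower still. Cxcl11 was 5.38-fold lower (-2.43), with 14 genes lower still, and 5.20-fold lower by its second probe set. Cxcl10 was 1.11-fold lower (-0.15), which is within the spread of the closest pair of arrays. Cxcr3 stood at -0.51. In all, 2 of 4 genes were at least 2-fold lower, where 3.08% of genes were. Expressed as a share of the wild-type level, CD14-deficient cells had 11.0% of Cxcl9, 18.6% of Cxcl11, 90.3% of Cxcl10 and 70.2% of Cxcr3.

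In the gap between ligands, any single factor that scales a whole array cancels. At 6 h the gap was -3.04 for Cxcl9 minus Cxcl10 and -2.28 for Cxcl11 minus Cxcl10, or 8.22-fold and 4.86-fold. Quantile normalization is no such factor, and as deposited these gaps were -3.27 and -2.44. At 24 h the gaps were -2.67 and -3.18, or 6.36-fold and 9.05-fold, and as deposited -2.37 and -2.97. At 24 h the differences of Cxcl9 and Cxcl11 lay 0.51 apart, within the spread of the closest pair, and the mean of both Cxcl11 probe sets, -3.39, put Cxcl11 on the other side of Cxcl9 at -3.49, so neither is placed above the other.

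After 24 h of LPS, Cxcl11 was 15.9-fold lower in CD14-deficient cells (-3.99), and 3 of 6846 genes lay lower still. Its second probe set was at least 6.92-fold lower. Cxcl9 was 11.2-fold lower (-3.49), with 11 genes lower still. Cxcl10 was 1.76-fold lower (-0.82), beyond the spread of the closest pair but inside the central 95% of genes, -1.51 to 1.30; with arrays scaled to equal medians its difference was -1.31. Cxcr3 was 3.72-fold lower (-1.90), with 93 genes lower still. In all, 3 of 4 genes were at least 2-fold lower, where 6.21% of genes were. The shares of the wild-type level were 8.92% for Cxcl9, 6.27% for Cxcl11, 56.8% for Cxcl10 and 26.9% for Cxcr3.

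**Figure D2:**
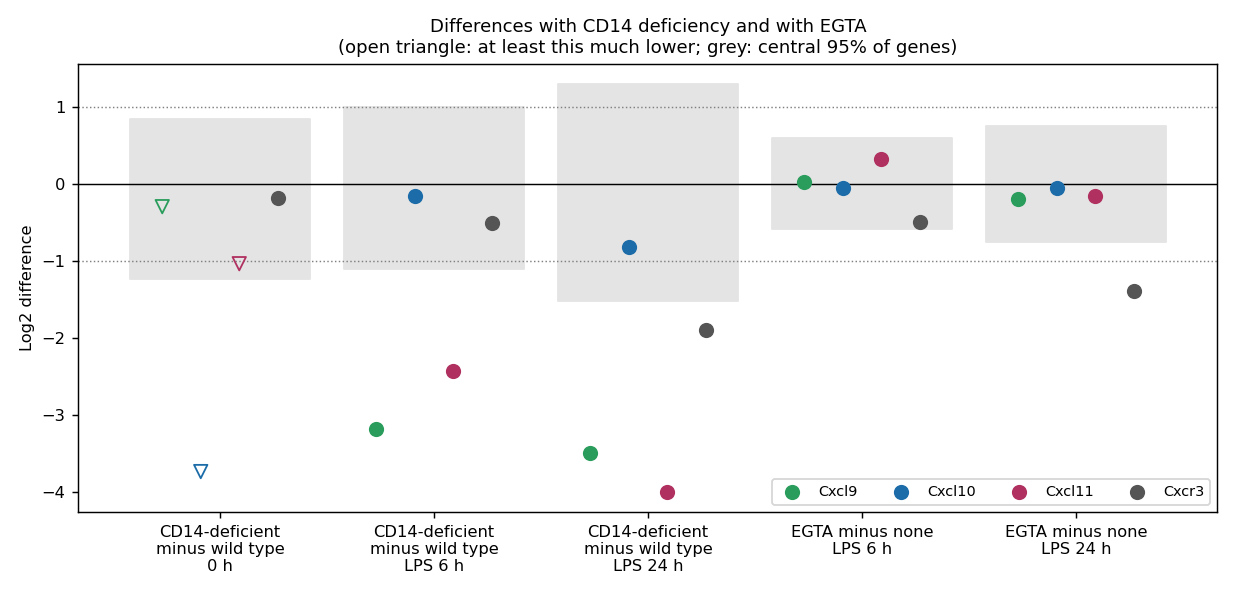
Log2 difference of each member between the pair of arrays named on the x axis, with filled circles for values, open triangles for bounds (at least this much lower), grey bands for the central 95% of all genes compared and dotted lines at 2-fold. At both LPS times Cxcl9 and Cxcl11 lie below -2 with CD14 deficiency while Cxcl10 lies inside the band, and with EGTA all 3 ligands lie inside the band.

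**Figure D3:**
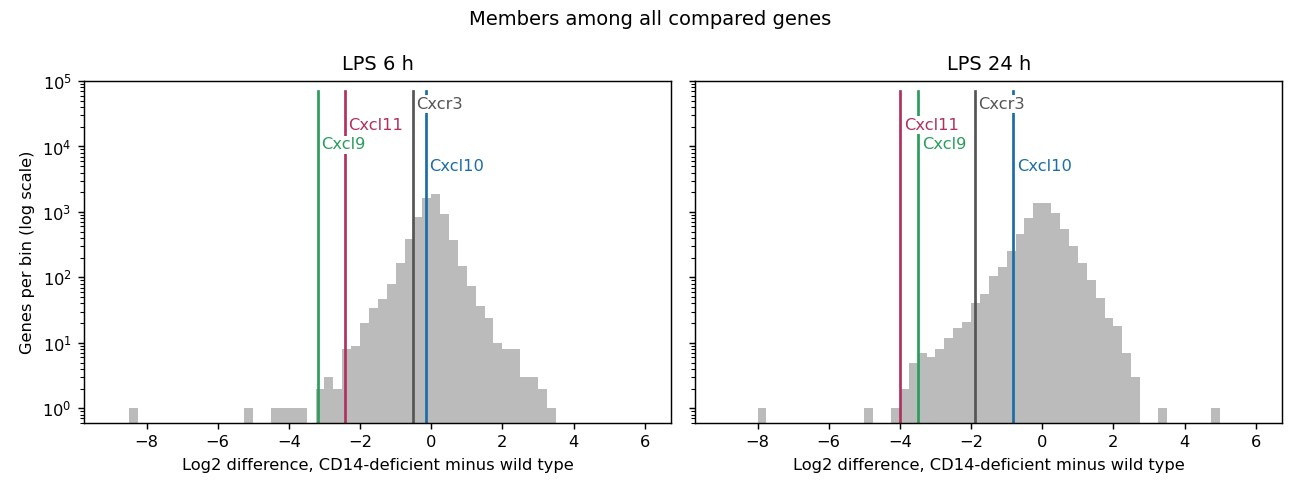
Number of genes (log axis) by their log2 difference between CD14-deficient and wild-type cells at 6 h and 24 h of LPS, with a vertical line for each member. Cxcl9 and Cxcl11 sit in the far lower tail at both times, and Cxcl10 at -0.15 and -0.82 sits among the bulk of the 6761 and 6846 genes.

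Cxcl10 was among the brightest probe sets on the LPS arrays, where it lay between the 98.3 and 99.8 percentile and where 36 to 383 probe sets were brighter. The brightest value after normalization was 18936. Whether the scanner's upper range limits its differences was not tested. Between the genotypes at 6 h, the central 95% of the 172 genes with an intensity of at least 8000 on either array, -0.61 to 0.88, was narrower than that of all genes, -1.10 to 1.01. The value of 8000 was chosen after the intensities were seen.

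Extracellular calcium chelation left the ligand genes close to their LPS level. At 6 h the differences with EGTA were 0.03 for Cxcl9, -0.05 for Cxcl10, 0.33 for Cxcl11, 0.09 for its second probe set and -0.48 for Cxcr3. None of the 4 genes was at least 2-fold lower, where 0.267% of genes were. As deposited, without normalization, the values were -0.76 for Cxcl9, -0.30 for Cxcl11 and -1.31 for Cxcr3, and the median of all genes moved to -0.78. Under equal medians the Cxcl10 value was 0.52, so the sign of these small differences depends on the scaling.

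At 24 h the differences with EGTA were -0.19 for Cxcl9, -0.05 for Cxcl10, -0.15 for Cxcl11 and 0.17 for its second probe set. Cxcr3 was 2.62-fold lower with EGTA (-1.39), and 11 of 6754 genes lay lower still. It was the 1 member of 4 past 2-fold, where 1.11% of genes were 2-fold lower. The ligand gaps to Cxcl10 were -0.14 for Cxcl9 and -0.10 for Cxcl11, against -2.67 and -3.18 with CD14 deficiency; both pairs of values share the wild-type LPS array at 24 h. With EGTA the cells had 87.7% of the Cxcl9, 96.5% of the Cxcl10, 90.2% of the Cxcl11 and 38.2% of the Cxcr3 level.

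The low Cxcr3 values of EGTA and of CD14 deficiency at 24 h are both set against the wild-type 24 h array, the highest of the 8. In the deposited intensities Cxcr3 was 388 on that array, 361 in unstimulated and 343 in 6 h wild-type cells, so that the wild-type difference from 0 h to 24 h was 0.10 rather than 0.78. The deposited values with EGTA were 138 at 6 h and 161 at 24 h, and with CD14 deficiency 327 unstimulated, 201 at 6 h and 144 at 24 h. On either scale the 4 lowest arrays were those of EGTA with LPS and CD14 deficiency with LPS. Of the markers of other cells, Dcn, a fibroblast proteoglycan gene, was at 192 on the wild-type 24 h array, at 58.2 with EGTA at 24 h and at the floor on the other 6; its part in the Cxcr3 value was not tested.

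Genes that carry the signals upstream of the ligands were read from a list of 27, of which 22 were analysed. In wild-type cells at 6 h of LPS, 9 of 22 were at least 2-fold higher and 0 lower, beside 10.5% and 9.5% of all genes. The median of the list was 0.73 against -0.12 for all genes. The highest was Jak2, a kinase of the interferon-gamma receptor, at 3.87. Irf1, a transcription factor induced by interferon-gamma, stood at 3.14. Socs1, the feedback inhibitor of JAK kinases, stood at 3.01. Ifnb1, which encodes interferon-beta, was at the floor unstimulated and 214 at 6 h and 224 at 24 h.

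Ifnb1 and Socs1 differed by genotype in the direction of Cxcl9 and Cxcl11. Ifnb1 was 66.8 in CD14-deficient cells at 6 h, 3.20-fold below wild type, and at the floor at 24 h, at least 5.85-fold below. With EGTA it was 209 at 6 h and 149.8 at 24 h. Socs1 was 2.38-fold lower in CD14-deficient cells at 6 h and 3.60-fold lower at 24 h. In the list as a whole, 2 of 22 genes were 2-fold higher and 2 lower at 6 h, beside 2.53% and 3.08% of all genes, the higher ones being the interferon-gamma receptor genes Ifngr1 (1.06) and Ifngr2 (1.45). At 24 h, 1 was higher and 4 lower, beside 5.21% and 6.21% of all genes, among them Irf1 at -1.40 and the kinase gene Tyk2 at -1.10. With EGTA 0 of 22 were 2-fold higher and 0 lower at either time; of all genes 0.549% were higher at 6 h and 1.02% at 24 h.

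Response genes of the kinds that Cxcl10 and Cxcl9 belong to were compared by the same pairs of arrays. Of 8 early IRF3-type genes, 2 were 2-fold lower with CD14 deficiency at 6 h, Ifnb1 and the exonuclease gene Isg20 (-1.24). Of all genes 3.08% were, and the median of the list was -0.21. At 24 h, 3 of 8 were lower, where 6.21% of all genes were, with Oasl1 at -1.38 and a median of -0.46. Ccl5 reached 11790 at 6 h and 12471 at 24 h in CD14-deficient cells, beside 11601 and 12269 in wild type, so that it resembled Cxcl10 at 6 h in showing no genotype difference larger than the spread of the closest pair.

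Of 13 interferon-gamma-type genes compared at 6 h, 1 was 2-fold lower with CD14 deficiency, Socs1, and the median was -0.40. Of all genes 3.08% were 2-fold lower. At 24 h, 5 of 14 were lower and 1 higher, beside 6.21% and 5.21% of all genes, with a median of -0.80. Nos2, the inducible nitric oxide synthase gene, was 7.99-fold lower, while Irf8, a myeloid transcription factor gene, was higher at 1.12. With EGTA 0 genes of either list were 2-fold higher or lower at 6 h or at 24 h.

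Other CXC chemokines did not share the pattern of Cxcl9 and Cxcl11. Of 10 on the array, 4 were compared after LPS. At 6 h, 2 of 4 were at least 2-fold higher in CD14-deficient cells, the neutrophil attractant genes Cxcl1 (2.60) and Cxcl2 (2.51), and 0 were lower. Of all genes 2.53% were higher and 3.08% lower. At 24 h 0 of 4 were 2-fold higher or lower, beside 5.21% and 6.21% of all genes. With EGTA at 24 h Cxcl1 was lower, at -1.16.

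Genes of receptor coupling and ligand handling were few above the median. Of 11 on the array, 7 were compared in wild-type cells at 6 h of LPS and 3 were at least 2-fold lower, where 9.5% of all genes were: Arrb1 (-2.15) and Arrb2 (-2.04), the arrestin genes that shut off chemokine receptors, and Ccr3 (-1.69), a receptor at which CXCR3 ligands act as antagonists. Dpp4, whose enzyme trims the ligands, and Ackr3, a scavenging receptor gene for CXCL11, were at the floor on all 8 arrays. With CD14 deficiency, 1 of 6 genes compared was higher at 24 h, Arrb1 at 1.31, beside 5.21% of all genes. At 6 h 0 of 7 differed 2-fold.

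The other genes of the chromosome 5 locus were read to see whether the ligands' range extended to them; these genes were chosen after their values were seen. Art3, between Cxcl9 and Cxcl10, and Ppef2 were at the floor on all 8 arrays. In wild-type cells at 6 h of LPS, Naaa stood at -0.02, Sdad1 at 0.07, Scarb2 at 0.04 and Nup54 at -0.77, beside 4.70 for Cxcl9, 4.81 for Cxcl10 and 5.85 for Cxcl11. U90926, a long noncoding RNA gene farther out on the Cxcl9 side, was the exception. It was at the floor on both unstimulated arrays, and stood at 1.67 or more in wild-type cells and 3.65 or more in CD14-deficient cells.

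The profile of each member over the 8 arrays was set against those of 3885 other genes with a range of at least 2-fold. Pearson's r was used as a description, without a test, since the 8 points share controls and normalization. For Cxcl10 the 5 most like genes were Acod1, which makes itaconate, Tap1, a peptide transporter of antigen presentation, the interferon-induced GTPase genes Igtp and Gbp3, and N4bp1, with r from 0.990 to 0.995. For Cxcl11 they were Aldh1b1, Stx2, Tnfsf10, which encodes the death ligand TRAIL, Vrk2 and Socs1, with r from 0.991 to 0.997. For Cxcl9 they were Insl6, Slc44a2, Adprm, Hrh2 and Tceanc2, with r from 0.979 to 0.986.

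Among the members, Cxcl9 and Cxcl11 were most alike, at r = 0.98, which placed Cxcl11 at rank 8 for Cxcl9 and Cxcl9 at rank 29 for Cxcl11. Cxcl10 and Cxcl11 had an r of 0.88, at rank 310 for Cxcl10 and rank 412 for Cxcl11. Cxcl9 and Cxcl10 had an r of 0.79, at rank 602 for Cxcl9 and rank 609 for Cxcl10.

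Cxcr3 had no close partner by the same measure. Its 5 most like genes, Rabgap1l, Sdr42e1, Pkp4, Tmod1 and Slc18a1, had r from 0.843 to 0.887. Its r with the ligands was 0.24 for Cxcl9, -0.06 for Cxcl10 and 0.18 for Cxcl11. These lists depend on the measure: with Spearman's rho 0 of 5 names were shared for each ligand and 2 of 5 for Cxcr3.

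**Figure D4:**
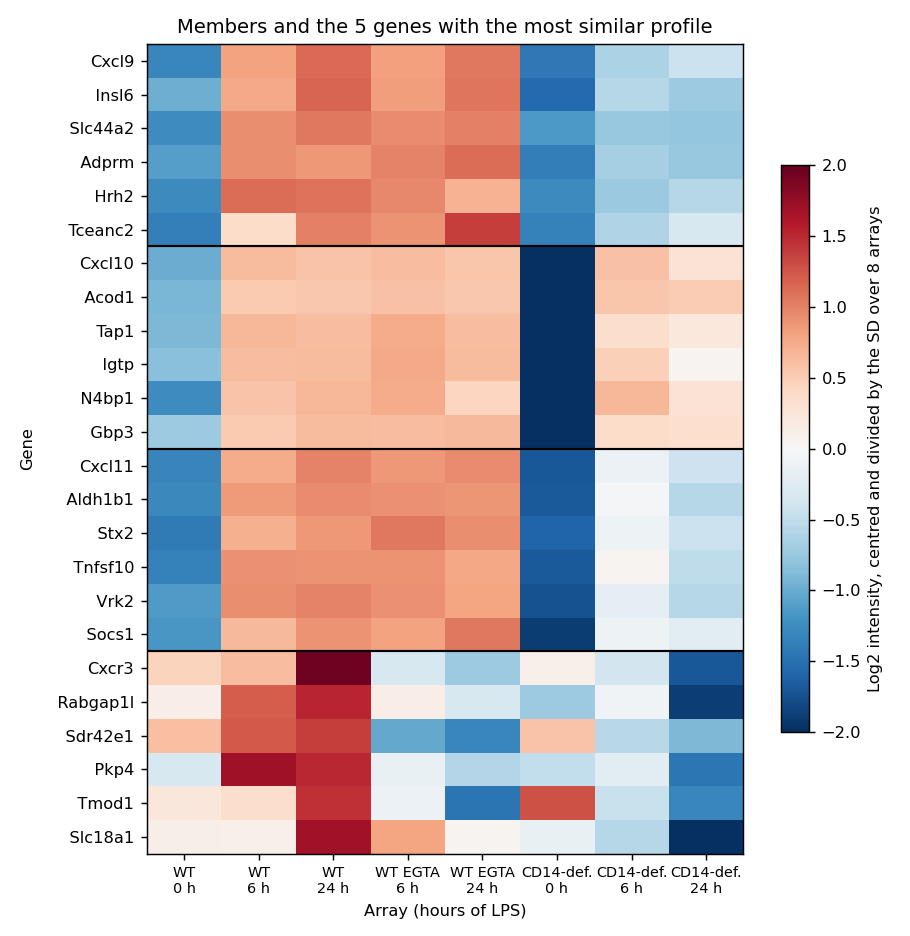
Log2 intensity of each member and, under it, of its 5 most like genes by Pearson's r, centred and divided by the SD over the 8 arrays, with 1 column per array; the genes were chosen for this likeness, blue is low and red high, and colours stop at -2 and 2. The block of Cxcl10 is low mainly on the unstimulated arrays, and those of Cxcl9 and Cxcl11 are also lower on the CD14-deficient LPS arrays. The block of Cxcr3 is highest on the wild-type 24 h array, except Pkp4, which is highest on the wild-type 6 h array.

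Klrk1, whose levels are given with those of Cxcr3, was also high on the wild-type LPS arrays and near or at the floor on the others, as Cxcl9 and Cxcl11 were high on the same arrays. The sum over the 8 NK cell markers ran from 307 to 779, with 6 of them, Ifng included, at the floor on every array, and the sum of the T cell list from 269 to 366. The part of Klrk1-bearing cells in the ligand values was not tested. In a bulk sample, fewer cells of a type and less RNA per cell cannot be told apart.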

How the data were processed

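Intensities of 22690 probe sets on 8 arrays were used as the authors deposited them, made with MAS5 per the submitters' processing notes. The version, any scaling to a common target, detection calls and the build are not given in the sources used here. They were quantile normalized over the 8 arrays, raised to a floor at the 40th percentile (38.4), and log2 was taken, with Python 3.11.15, numpy 2.4.6 and pandas 2.3.3. Quantile normalization would hide a shift shared by all genes. Of the probe sets, 20393 named 1 gene, 691 several and 1606 none or were not listed; the probe set with the highest mean stood for each of 12394 genes. With 1 array per group there is no test or p-value, and the number of arrays limits the precision; 12 comparisons were made.

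The members and lists were chosen with earlier results of these data known. Named genes were the members, Cd14, the 5 most like genes per member and at most 3 extremes per list and comparison; others named were chosen after their values were seen. Alternatives were the deposited intensities, equal medians, a floor at the 20th percentile, no floor, the mean of probe sets, no filter on dim genes and Spearman's rho. The calculation was tested on simulated data.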

Additional observations from a re-analysis of the deposited data

Results flagged for a closer look

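The members' course differed in direction between genotypes, with both sizes above 0.59, in 3 instances. Each came from single arrays, and the differences were not tested. Smaller opposite values, as of Cxcr3 from 0 h to 6 h (0.09 in wild-type and -0.25 in CD14-deficient cells), were not flagged. From 6 h to 24 h of LPS, Cxcl11 stood at 0.70 in wild-type and -0.87 in CD14-deficient cells, 1.57 apart. Its second probe set gave -0.02 in wild type and at most -0.43 in CD14-deficient cells. Over the same interval Cxcr3 stood at 0.69 and -0.69, 1.39 apart. From unstimulated cells to 24 h of LPS, Cxcr3 stood at 0.78 in wild-type and -0.94 in CD14-deficient cells, 1.72 apart. As deposited, the wild-type values of Cxcr3 were 0.17 from 6 h and 0.10 from 0 h, and those of CD14-deficient cells -0.48 and -1.18.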

How the results depend on the processing

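No paired analysis was possible because each group has 1 array, and no array could be left out for the same reason. Over 66 member differences and ligand gaps, 276 values under the alternatives kept their sign in 263 instances; the 13 that changed sign had main sizes of at most 0.38. All 115 alternative values computed for results of at least 2-fold kept their sign, and 113 stayed at least 2-fold. The exceptions were Cxcl11 between the unstimulated genotypes, at -0.52 by the mean of probe sets and -0.99 with equal medians. The gaps of Cxcl11 to Cxcl10 were not computed by the mean of probe sets, so these counts leave that setting out for them. By that mean, Cxcl11 in wild type at 6 h of LPS stood at 4.33, below the 4.81 of Cxcl10. The 2-fold size of the Cxcl11 gaps from 0 h in wild type therefore rests on the brighter probe set. The mean of both Cxcl11 probe sets, which counts the floor values of the dimmer one, gave 4.33 at 6 h and 4.67 at 24 h of LPS in wild type, 2.44 and 1.80 in CD14-deficient cells, and -3.39 between genotypes at 24 h. As deposited, Cxcr3 stood at 0.10 for wild type from 0 h to 24 h, and EGTA at 6 h gave -0.76 for Cxcl9, -0.30 for Cxcl11 and -1.31 for Cxcr3, with the median of all genes at -0.78. Differences from the unstimulated CD14-deficient array follow the floor by construction. With a floor at the 20th percentile, Cxcl9, Cxcl10 and Cxcl11 stood at 3.94, 9.30 and 6.59 after 6 h, 4.38, 8.43 and 5.73 after 24 h, and -2.43, -4.64 and -3.17 between unstimulated genotypes. With no floor the values were 6.73, 9.30 and 6.95, then 7.17, 8.43 and 6.09, then -5.22, -4.64 and -3.53. Between unstimulated genotypes the values of Cxcl9 and Cxcl11 rest on intensities below the median on both arrays, and these genes were not compared there above. A size of 2-fold was reached under an alternative only by Cxcl10 with CD14 deficiency at 24 h (-1.31) and in its course from 6 h to 24 h (-1.06), both with equal medians, and, as deposited, by Cxcr3 in CD14-deficient cells from 0 h to 24 h (-1.18), Cxcr3 with EGTA at 6 h, and Cxcl9 with EGTA from 6 h to 24 h (1.00). The gap of Cxcl9 to Cxcl10 in that last comparison was 1.09 both as deposited and with equal medians, and Cxcl9 between unstimulated genotypes passed 2-fold with the lower floor or none. Counts of genes at least 2-fold moved most as deposited: higher, from 740 to 365 in wild type at 24 h against 0 h and from 376 to 109 at 24 h against 6 h; lower, from 380 to 1271 at 24 h against 6 h, from 18 to 1355 with EGTA at 6 h, from 75 to 42 with EGTA at 24 h, from 423 to 165 between the EGTA times, and with CD14 deficiency from 208 to 448 at 6 h and from 425 to 215 at 24 h. Counts of higher genes moved from 37 to 2 with EGTA at 6 h, from 69 to 115 with EGTA at 24 h, and with CD14 deficiency from 171 to 98 at 6 h and from 357 to 1089 at 24 h. The cause of these shifts was not tested.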
